A study of Mus musculus with 8 samples.

Results

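The autophagy machinery is the set of proteins that builds the autophagosome, a double membrane that encloses cytoplasm, damaged organelles or bacteria and delivers them to the lysosome. It was taken here as 36 genes chosen by name, out of 17518 genes in the deposited table. All 36 were in the table and all 36 passed the filter on low counts that left 11911 genes for testing. The study tested ROS-responsive nanoparticles (ROS, reactive oxygen species) meant to image and treat acute lung injury. Libraries of polyadenylated RNA came from MH-S cells, which are an alveolar macrophage line of the mouse. Control cells were given phosphate-buffered saline (PBS; n = 3 libraries). The LPS group was given lipopolysaccharide, a component of the bacterial outer membrane that activates macrophages (n = 2), with no separate dose stated. The third group was given 100 ng/mL LPS together with 1 µg/mL of the nanoparticles, named RCMNs (n = 3). No group received RCMNs without LPS, and the labels used here state no time of treatment. Nor do they state that replicates came from separate cultures, so the p-values reflect spread between libraries that may be technical.

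Autophagosome formation starts when the ULK kinase complex activates a class III phosphatidylinositol 3-kinase complex built around Beclin 1 and VPS34. ATG9 vesicles, the lipid transfer proteins ATG2A and ATG2B and the WIPI proteins supply and mark the growing membrane, and linked conjugation reactions attach ATG8 proteins (the LC3 and GABARAP families) to its lipids. Cargo receptors such as p62, the product of Sqstm1, bind ubiquitin-tagged cargo and ATG8 together, and are themselves degraded with the cargo. In macrophages the pathway limits inflammasome activity and intracellular bacteria, and a related process conjugates LC3 to phagosomes. Transcript levels do not measure the rate at which autophagosomes are made or degraded.

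TFEB, TFE3 and MITF, the best known activators of autophagy and lysosome genes, bind the letters CACGTG, and NRF2, which activates Sqstm1 under oxidative stress, binds variants of TGACNNNGC. Both motifs, TCACGTGA (the flanked form of the first, which overlaps it) and TGTTTAC (a FOXO site) were searched on both strands in the 250 bases before each RefSeq transcript start (build GRCm38.p6). Windows were found for 30 of the 36 genes. CACGTG was in 3 of them (10%, against 6.86% of all 27025 genes with windows), TCACGTGA in 1 (3.33% against 0.907%), TGACNNNGC in 3 (10% against 11.5%) and TGTTTAC in 0 (against 3.54%). Shown are the windows of the 3 genes that hold CACGTG, in capitals, and of Sqstm1, the gene with the largest change in LPS, whose window holds none of the 4 motifs.
Atg3, chr16:45158579-45158828, plus strand: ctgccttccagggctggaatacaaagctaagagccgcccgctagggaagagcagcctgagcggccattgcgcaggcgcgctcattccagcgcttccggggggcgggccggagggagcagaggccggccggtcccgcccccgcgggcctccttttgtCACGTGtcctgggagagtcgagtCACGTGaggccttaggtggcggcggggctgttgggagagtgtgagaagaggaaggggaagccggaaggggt
Atg5, chr10:44268089-44268338, plus strand: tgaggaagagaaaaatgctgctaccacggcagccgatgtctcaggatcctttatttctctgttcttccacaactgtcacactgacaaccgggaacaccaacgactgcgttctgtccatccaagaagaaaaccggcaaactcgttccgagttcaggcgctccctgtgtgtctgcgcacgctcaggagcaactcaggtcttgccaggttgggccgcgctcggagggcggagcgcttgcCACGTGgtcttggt
Atg7, chr6:114670846-114671095, plus strand: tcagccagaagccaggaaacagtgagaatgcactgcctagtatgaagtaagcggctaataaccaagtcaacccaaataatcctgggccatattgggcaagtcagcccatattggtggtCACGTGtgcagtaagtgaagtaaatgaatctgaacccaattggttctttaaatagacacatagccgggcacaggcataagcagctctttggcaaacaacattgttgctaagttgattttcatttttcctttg
Sqstm1, chr11:50210821-50211070, minus strand: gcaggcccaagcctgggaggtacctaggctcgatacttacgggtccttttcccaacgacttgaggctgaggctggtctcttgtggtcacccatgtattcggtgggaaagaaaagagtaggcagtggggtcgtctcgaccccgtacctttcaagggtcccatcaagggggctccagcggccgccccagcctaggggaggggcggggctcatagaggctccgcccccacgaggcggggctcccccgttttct
In Atg3 the motif begins 94 and 71 bases before the start, and the nearer copy is the flanked form. It begins 14 bases before the start in Atg5 and 132 in Atg7. The Atg7 window lies inside the gene, before an internal transcript start. The last bases of the Atg5 window, which hold its CACGTG, also lie inside the annotated gene. Atg13, Tax1bp1 and Ulk2 held TGACNNNGC. These matches describe letters only, and the data hold no measurement of binding.

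Each library held 18.6 to 21.2 M (mega) counts. Levels are given as CPM, counts per M of library size scaled by TMM (edgeR's trimmed mean of M-values), or, between genes of different length, as the deposited FPKM (fragments per kb per M). A count of 3, the limit that a count of 0 allows, corresponded to 0.13 to 0.182 CPM, counting error only, and all 36 genes were above it in every library. Il1b, Il6 and Cxcl10, which LPS induces, were 349 to 354, 108 to 133 and 125 to 127 CPM in the LPS libraries and at most 0.233, 0.605 and 2.19 CPM in control libraries. General macrophage markers other than Mertk were abundant. The lowest values in any library were 1973 CPM for Lyz2, 487 for Csf1r, 427 for Cd68, 363 for Itgam, 288 for Adgre1 and 250 for Ptprc. Mertk had means of 10.8 CPM in control, 0.636 in LPS and 8.27 in LPS+RCMNs libraries. The alveolar macrophage markers were mixed. Siglecf, Chil3, Car4 and Pparg were at most 0.506 CPM and Marco at most 1.32 CPM, while Itgax was 6.24 to 25.7 CPM and Fabp4 11.8 to 98.4 CPM. Fabp4 also differed between the groups, with means of 12.5 CPM in control, 93.8 in LPS and 63.8 in LPS+RCMNs libraries. Both LPS libraries stood apart from the other 6 on the first principal component (67.4% of the variance) and had TMM factors of 0.779 and 0.802 against 1.05 to 1.13. In them 7 red blood cell markers summed to 4357 and 5621 CPM, against 0.867 to 20.7 in control and 0.658 to 34.1 in LPS+RCMNs libraries, and 8 neutrophil markers to 5.57 and 5.94 CPM against at most 0.186 and 0.709. The part of these differences in the results below was not tested, except for gene length, given below. Within their groups, control replicate 1 and LPS+RCMNs replicate 2 were the outlying libraries. They were picked out from these same data, so adjusted p-values from fits without both may be too small.

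LPS libraries had 11 of the 36 autophagy genes above and 15 below control, and 10 did not pass the test (edgeR's quasi-likelihood test, Benjamini-Hochberg adjusted p below 0.05 over all 11911 genes). Among all genes tested 31.4% were higher and 32.1% lower, so that the counts of autophagy genes were close to that background. Their median log2 fold change was -0.14, against -0.04 over all genes. With LPS+RCMNs, 11 genes were higher and 11 lower than with LPS, against 29.8% and 29.5% of all genes, with a median of -0.04 against 0.03. Against control, LPS+RCMNs libraries had 1 higher and 2 lower, where 4.33% and 3.23% of all genes were called, with a median of -0.06 against -0.02. The first 2 comparisons share the LPS libraries, and the first and the third share the control libraries, so their values are not independent. On log2(FPKM + 1), which has no TMM scaling and where the median of all genes was -0.33 and 0.27 in the first 2 comparisons, limma called 5 higher and 22 lower, and 18 higher and 7 lower. Without control replicate 1 and LPS+RCMNs replicate 2, the counts of higher and lower genes in edgeR were 15 and 14, 15 and 13, and 5 and 3. Over all 11911 genes the counts in that fit were 4573 and 4303, 4347 and 4397, and 1755 and 1258. For limma no counts over all genes are given here. In bulk RNA a smaller share of cells with a transcript and less of it per cell cannot be told apart.

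**Figure D1:**
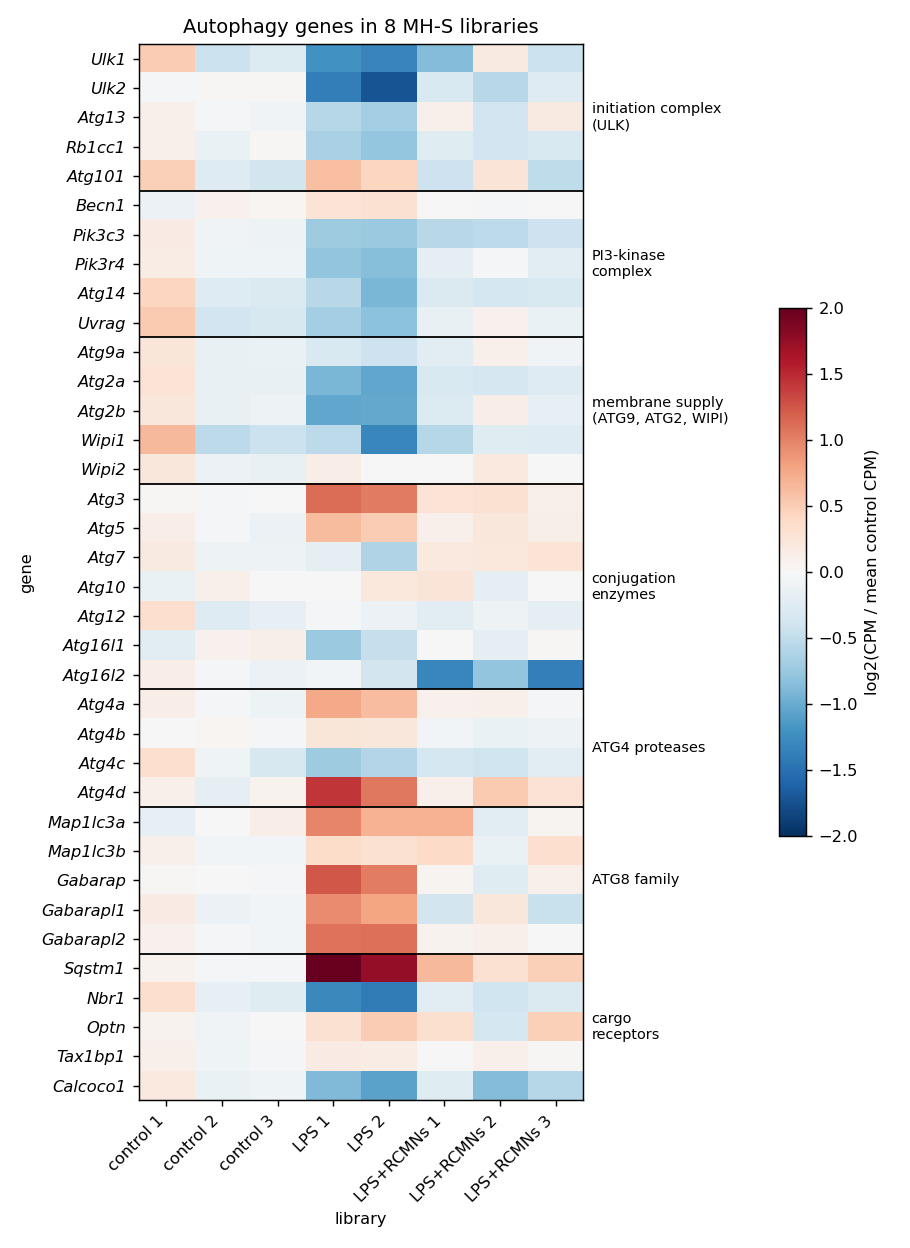
Level of each of the 36 autophagy genes (rows, grouped by role) in each of the 8 libraries (columns), as log2 of CPM over the mean control CPM. The ATG8 family and Sqstm1, Atg3 and Atg4d are red in both LPS libraries, the ULK kinases, Atg2a, Atg2b and Nbr1 are blue in them, and Atg16l2 is blue in the 3 LPS+RCMNs libraries.

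Per length, Sqstm1 was the most abundant of the 36 transcripts in control libraries at 135 ± 8.98 FPKM (SD, n = 3). Gabarap followed at 100.5 ± 3.27 FPKM. Gabarapl2 (55.5 ± 4.36), Map1lc3b (54.4 ± 4.59) and Becn1 (51.1 ± 3.11 FPKM) came next, and these 3 did not differ beyond their spread. At the other end stood Ulk1 (2.50 ± 1.05), Wipi1 (1.70 ± 0.870) and Optn, which encodes the cargo receptor optineurin (0.780 ± 0.0458 FPKM).

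**Figure D2:**
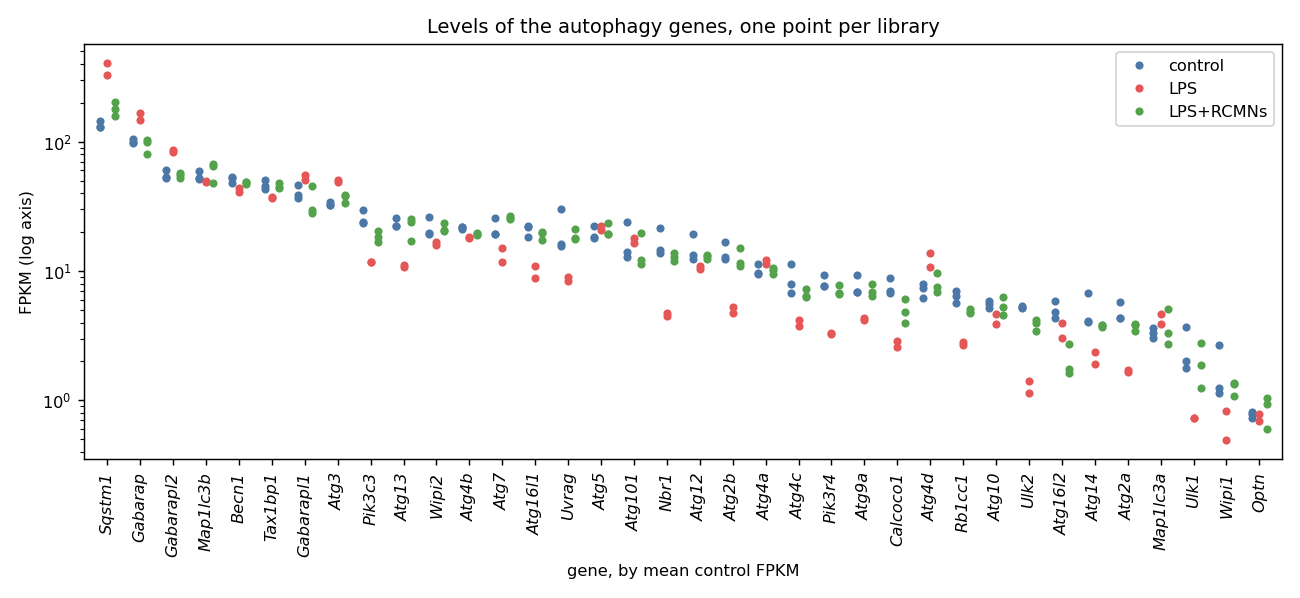
FPKM of each autophagy gene (log axis) in each library, one point per library, with genes ordered by mean control FPKM. Sqstm1 is highest in every group, and its LPS points lie above all others, while Optn and Wipi1 lie lowest in control.

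Counts per role in LPS, here and below, are to be read against 31.4% of all genes higher and 32.1% lower. Those given with the trend on length and level removed are to be read against 21.7% higher and 21% lower. The ULK complex, which starts autophagosome formation, had 4 of 5 genes lower in LPS and 0 higher. With the trend on length and level removed (described below), the complex had 1 lower and 0 higher. Ulk2, one of its 2 kinases, was 26.4, 27.4 and 27.4 CPM in control, 10.4 and 8.18 in LPS and 21.9, 18.5 and 22.7 in LPS+RCMNs libraries. The LPS values lay below all others, and the 3 LPS+RCMNs values lay between those of the other groups without overlap. Ulk2 fell by 1.54 on the log2 scale in LPS (SE 0.15, adjusted p = 2.73e-05) and was 1.18 higher with LPS+RCMNs than with LPS (SE 0.15, adjusted p = 1.52e-04). Ulk1, the other kinase, was 16.0, 8.33 and 9.29 CPM in control, 4.84 and 4.48 in LPS and 6.13, 12.8 and 8.31 in LPS+RCMNs libraries. Control replicate 1 and LPS+RCMNs replicate 2 were the high ones, and both LPS values were below all others. The log2 fold change of Ulk1 was -1.27 ± 0.37 (SE) in LPS and 0.96 ± 0.37 with LPS+RCMNs against LPS (adjusted p = 0.0144 and 0.0498, edgeR).

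Atg13 and Rb1cc1 encode the ULK kinases' regulatory subunits, the latter named FIP200. Atg13 was 80.4, 72.5 and 71.3 CPM in control, 50.6 and 46.7 in LPS and 79.8, 57.0 and 84.4 in LPS+RCMNs libraries, a log2 fold change of -0.62 in LPS and 0.60 with LPS+RCMNs against LPS. Rb1cc1, one of the longest of these transcripts, was 34.5 to 40.8 CPM in control, 22.2 and 24.4 in LPS and 29.3 to 32.1 in LPS+RCMNs libraries. Atg101, which stabilises ATG13, was 14.1 to 25.3, 24.5 to 27.5 and 12.8 to 21.8 CPM in the 3 groups, and with all libraries its log2 fold changes of 0.51 in LPS and -0.69 with LPS+RCMNs against LPS were not called (adjusted p = 0.149 and 0.0652, edgeR). Control replicate 1 and LPS+RCMNs replicate 2 were the high libraries of their groups, and without both Atg101 was called higher in LPS (0.88, adjusted p = 2.03e-05) and lower with LPS+RCMNs than with LPS (-0.999, adjusted p = 8.47e-06, edgeR). With all libraries and the trend on length and level removed, Atg101 had -0.22 in LPS (adjusted p = 0.541, edgeR). Against LPS it then had 0.01 with LPS+RCMNs (adjusted p = 0.980, edgeR). The Ulk1 call in LPS did not hold without either LPS library (log2 fold change -1.32 and -1.21, adjusted p = 0.0727 and 0.0877, edgeR). For Atg13 it did not hold without LPS replicate 2 (-0.56, adjusted p = 0.0638, edgeR). Of the calls against LPS, that of Ulk1 was also lost without control replicate 3, either LPS library or LPS+RCMNs replicate 2 or 3 (0.60 to 1.02), and those of Atg13 and Rb1cc1 without LPS replicate 2 (0.54 and 0.33).

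Of the 5 genes of the phosphatidylinositol 3-kinase complex, 4 were lower in LPS and 1 higher. With the trend on length and level removed, 0 were lower and 0 higher. Becn1, the gene of the scaffold Beclin 1, was 81.0, 93.3 and 90.1 CPM in control, 106 and 108 in LPS and 89.1, 86.6 and 88.7 in LPS+RCMNs libraries. Both LPS values were above all others, by a small margin: the log2 fold change was 0.28 ± 0.09 against control (adjusted p = 0.0200, edgeR), but -0.25 on log2(FPKM + 1). Of its exon bases 29.6% overlap Cntd1 on the opposite strand, whose level was at most 0.929 CPM. Pik3c3, the gene of the catalytic subunit VPS34, was 157, 132 and 130 CPM in control, 85.7 and 83.3 in LPS and 94.9, 97.4 and 105 in LPS+RCMNs libraries. The 3 groups did not overlap, and the LPS+RCMNs values lay nearer to LPS than to control. Pik3c3 had a log2 fold change of -0.73 ± 0.11 in LPS (adjusted p = 3.28e-04), 0.23 ± 0.11 for LPS+RCMNs versus LPS, which missed the threshold (adjusted p = 0.0935), and -0.50 ± 0.09 for LPS+RCMNs versus control (adjusted p = 0.0158).

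Pik3r4, the gene of the regulatory subunit VPS15, was 33.6 to 39.8 CPM in control, 19.7 and 20.6 in LPS and 30.6 to 35.3 in LPS+RCMNs libraries (log2 fold changes -0.82 and 0.68). Atg14 and Uvrag encode alternative partners of Beclin 1, the first in autophagosome formation and the second in endosome traffic and autophagosome maturation. Atg14 was 20.4, 12.8 and 12.5 CPM in control, 10.4 and 8.12 in LPS and 12.5, 11.9 and 12.4 in LPS+RCMNs libraries, and Uvrag was 90.04, 48.5 and 50.2, then 39.2 and 35.5, then 56.5, 67.0 and 57.5 CPM. For both genes control replicate 1 was the high library. Without it and LPS+RCMNs replicate 2, the log2 fold changes in LPS were -0.39 for Atg14 and -0.35 for Uvrag, against -0.72 and -0.75 with all libraries, and Atg14 was called higher with LPS+RCMNs than with LPS (0.40, adjusted p = 0.0228, edgeR). The calls in LPS were lost for Uvrag without either LPS library (-0.82 and -0.68), for Atg14 without LPS replicate 2 (-0.55) and for Becn1 without either (0.30 and 0.27). Against LPS, the Uvrag call (0.69) was lost without any 1 of the LPS or LPS+RCMNs libraries (0.58 to 0.76), and the Becn1 call (-0.28) without either LPS library or LPS+RCMNs replicate 1 or 3 (-0.30 to -0.27).

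Among the 5 membrane supply genes, the lipid transfer proteins' genes were lower in LPS and the other 3 were not called with all libraries. With the trend on length and level removed, 0 of the 5 were lower and 1 higher. Atg2b was 93.8, 72.6 and 74.5 CPM in control, 39.2 and 39.5 in LPS and 66.7, 87.9 and 71.6 in LPS+RCMNs libraries. The LPS values lay well below all others, and the other groups overlapped. For Atg2b the log2 fold change was -1.03 ± 0.15 in LPS (adjusted p = 3.36e-04) and 0.94 ± 0.15 with LPS+RCMNs against LPS (adjusted p = 6.57e-04). Atg2a was 20.6 to 27.6 CPM in control, 12.2 and 11.2 in LPS and 18.2 to 19.3 in LPS+RCMNs libraries, with log2 fold changes of -0.97 ± 0.16 and 0.68 ± 0.16. Atg9a, the gene of a membrane-spanning core protein of the pathway, was 24.1 to 31.5, 19.9 to 21.5 and 23.1 to 28.4 CPM (log2 fold change -0.36, adjusted p = 0.0671, edgeR). It was called lower with the stricter filter (-0.40, adjusted p = 0.0392, edgeR) and on log2(FPKM + 1) (-0.71, adjusted p = 0.00311, limma). Of its exon bases, 41.8% are shared with the annotated gene Gm29253 on the same strand, so its counts are uncertain.

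The WIPI proteins bind phosphatidylinositol 3-phosphate and recruit ATG16L1. Wipi2 was 90.4, 71.4 and 69.4 CPM in control, 84.5 and 76.6 in LPS and 77.0, 88.2 and 77.4 in LPS+RCMNs libraries, all overlapping. In LPS the log2 fold change of Wipi2 was 0.06 ± 0.13, which turned to -0.38 on log2(FPKM + 1) (adjusted p = 0.0358, limma) but was 0.25 without both outlying libraries (adjusted p = 0.00805, edgeR). Wipi1 was 1.86 to 4.20 CPM in control, 1.09 and 1.88 in LPS and 1.81 to 2.28 in LPS+RCMNs libraries. Its log2 fold change in LPS of -0.86 ± 0.43 was not called (adjusted p = 0.106, edgeR), but it was called lower with the trend on length alone removed (-1.23, adjusted p = 0.0395, edgeR) and on log2(FPKM + 1) (-0.66, limma).

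The conjugation enzymes, which attach ATG8 proteins to lipid, moved in both directions: 2 of 7 were higher and 2 lower in LPS. With the trend on length and level removed, 2 were higher and 1 lower. Atg3, the E2-like enzyme that transfers ATG8 to phosphatidylethanolamine, was 59.2, 57.8 and 58.3 CPM in control, 127 and 120 in LPS and 70.3, 72.2 and 62.9 in LPS+RCMNs libraries. Replicates agreed closely within each group, and no group overlapped another. Atg3 was 2.11-fold higher in LPS (log2 1.08 ± 0.09, adjusted p = 1.09e-05) and fell by 0.85 on the log2 scale with LPS+RCMNs against LPS (SE 0.09, adjusted p = 5.05e-05). Atg5, the conjugation partner of ATG12, was 41.2, 36.3 and 34.6 CPM in control, 58.0 and 53.0 in LPS and 40.2, 43.9 and 40.4 in LPS+RCMNs libraries (log2 fold changes 0.57 ± 0.11 and -0.42 ± 0.11). The second of these calls was lost without LPS replicate 1 (-0.35, adjusted p = 0.0685, edgeR).

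Atg7, the E1-like enzyme that activates both ATG12 and ATG8, was 70.8, 57.9 and 57.9 CPM in control, 54.7 and 40.9 in LPS and 71.3, 72.1 and 75.05 in LPS+RCMNs libraries. The LPS values were the lowest and the LPS+RCMNs values the highest. The change in LPS was -0.38 ± 0.14 on the log2 scale (adjusted p = 0.0402). Leaving out control replicate 1, LPS replicate 2 or any 1 of the LPS+RCMNs libraries ended that call (-0.38 to -0.19). With LPS+RCMNs against LPS it was 0.61 ± 0.14 (adjusted p = 0.00500, or 0.0502 without LPS replicate 2, edgeR). Atg16l1, which places the conjugating complex on the membrane, was 48.6, 60.4 and 62.1 CPM in control, 34.2 and 41.2 in LPS and 56.5, 49.8 and 57.8 in LPS+RCMNs libraries. Its log2 fold changes were -0.60 ± 0.14 and 0.54 ± 0.14, and both calls were lost without LPS replicate 1 (-0.47 and 0.41).

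Atg16l2, the paralog of Atg16l1, had another pattern. It was 13.2, 11.8 and 11.1 CPM in control, 11.6 and 9.39 in LPS and 4.86, 6.98 and 4.66 in LPS+RCMNs libraries. The LPS and control values overlapped, and all 3 LPS+RCMNs values lay below both. The log2 fold change was -0.20 ± 0.20 in LPS against control, -0.93 ± 0.21 for LPS+RCMNs against LPS (adjusted p = 0.00375) and -1.13 ± 0.19 for LPS+RCMNs versus control (adjusted p = 0.00834). Per length, Atg16l2 stood at 0.194 to 0.325 of the level of Atg16l1 in control, 0.276 and 0.450 in LPS and 0.0813 to 0.156 in LPS+RCMNs libraries. Atg10, the E2-like enzyme for ATG12, was 6.78 to 9.27 CPM over all libraries, and Atg12 was 27.4 to 41.3 CPM. Neither was called in any comparison, except Atg12 as lower in LPS on log2(FPKM + 1) (-0.44, limma).

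ATG4 proteases cut ATG8 proteins before conjugation and release them from membranes afterwards. In LPS 3 of the 4 genes were higher and 1 lower, or 3 and 0 with the trend on length and level removed. Atg4d was 14.7, 12.1 and 14.4 CPM in control, 37.0 and 28.5 in LPS and 14.7, 19.6 and 16.8 in LPS+RCMNs libraries, so both LPS values exceeded all others. It was 2.38-fold higher in LPS (log2 1.25 ± 0.17, adjusted p = 1.78e-04) and fell by 0.94 with LPS+RCMNs against LPS (SE 0.17, adjusted p = 0.00109). Of its exon bases 23.2% overlap Kri1 on the opposite strand, and whether counting used strand is not given. Kri1 itself was 69.0 ± 9.01, 77.6 ± 9.02 and 66.2 ± 3.74 CPM (SD) in control, LPS and LPS+RCMNs libraries.

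Atg4a was 18.7 to 21.8 CPM in control, 33.7 and 30.6 in LPS and 19.4 to 21.4 in LPS+RCMNs libraries, with log2 fold changes of 0.69 ± 0.12 and -0.64 ± 0.12. Atg4b, the most active family member on LC3, was 59.7 to 62.6, then 72.0 and 71.1, then 55.6 to 58.6 CPM. The log2 fold changes of Atg4b were 0.23 ± 0.08 and -0.33 ± 0.08, but -0.24 and 0.08 on log2(FPKM + 1), and the first call was lost when control replicate 2 or 3, either LPS library or LPS+RCMNs replicate 1 or 3 was left out (0.22 to 0.25). Atg4c went the other way, from 18.1 to 28.6 CPM in control to 13.9 and 15.1 in LPS (log2 fold change -0.65 ± 0.19), with 17.2 to 19.7 in LPS+RCMNs libraries. Its call was lost without either LPS library (-0.59 and -0.71), and without both outlying libraries it was called higher with LPS+RCMNs than with LPS (0.34, adjusted p = 0.0219, edgeR). As shares of the family's summed FPKM, Atg4d was 15.1 ± 1.63% in control, 26.6 ± 3.44% in LPS and 18.2 ± 2.76% with LPS+RCMNs, whereas Atg4c was 18.05 ± 3.19%, 8.56 ± 1.06% and 15.1 ± 1.45% (SD). These shares still hold the trend on length described below (Atg4d 2138 bases, Atg4c 2901).

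The ATG8 family had 4 of 5 genes higher in LPS and 0 lower, where 31.4% and 32.1% of all genes were called. With LPS+RCMNs against LPS, 0 were higher and 3 lower, where 29.8% and 29.5% of all genes were called. These 3 were among the 4, and both comparisons share the LPS libraries. With the trend on length and level removed (described below), the family had 0 higher and 0 lower in LPS. Against LPS it then had 0 higher and 1 lower (18.5% and 20.1% of all genes). Gabarap was 98.6, 97.4 and 95.8 CPM in control, 230 and 197 in LPS and 101, 81.9 and 105 in LPS+RCMNs libraries. Gabarapl2, also named GATE-16, was 49.7, 45.2 and 44.8 CPM in control, 98.6 and 100.4 in LPS and 48.8, 50.1 and 46.1 in LPS+RCMNs libraries. For both genes the LPS values were well above all others, and control and LPS+RCMNs values overlapped. The log2 fold change in LPS was 1.13 ± 0.12 for Gabarap (adjusted p = 3.83e-05) and 1.10 ± 0.09 for Gabarapl2 (adjusted p = 9.55e-06). With LPS+RCMNs against LPS it was -1.15 ± 0.12 and -1.04 ± 0.09 (adjusted p = 4.38e-05 and 1.59e-05).

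Gabarapl1 was 70.2, 57.7 and 60.5 CPM in control, 121 and 109 in LPS and 48.9, 73.7 and 46.0 in LPS+RCMNs libraries, and replicate 2 of the last group was high. Its log2 fold changes were 0.87 ± 0.19 in LPS (adjusted p = 0.00299) and -1.03 ± 0.19 with LPS+RCMNs against LPS (adjusted p = 0.00125). Of the LC3 genes, 1 of 2 was called in LPS. Map1lc3b, the main LC3 gene, was 127, 113 and 114 CPM in control, 152 and 147 in LPS and 154, 108 and 149 in LPS+RCMNs libraries, with replicate 2 of the last group low. In LPS this gave a log2 fold change of 0.34 ± 0.15, past no threshold (adjusted p = 0.0663, edgeR). Without LPS+RCMNs replicate 2 it was called higher in LPS (0.39), as it was without both outlying libraries (0.45, adjusted p = 5.76e-05, edgeR). With the trend on length and level removed, Map1lc3b had 0.03 in LPS (adjusted p = 0.907, edgeR). Its mean FPKM was 54.4 in control and 49.0 in LPS libraries. Map1lc3a was near the lower end at 2.69, 3.02 and 3.30 CPM in control, 5.93 and 4.84 in LPS and 4.86, 2.58 and 3.12 in LPS+RCMNs libraries (log2 fold change 0.84 ± 0.28 in LPS, adjusted p = 0.0248). That call was lost without control replicate 1 or 2 or LPS replicate 1 (0.69 to 0.85).

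The cargo receptors held the largest rise and one of the largest falls among the 36 genes. Sqstm1 was 252, 233 and 232 CPM in control, 1031 and 812 in LPS and 376, 294 and 331 in LPS+RCMNs libraries. The 3 groups did not overlap. Sqstm1 was 3.85-fold higher in LPS than in control (log2 1.95 ± 0.13, adjusted p = 3.91e-06) and fell by 1.46 on the log2 scale with LPS+RCMNs against LPS (SE 0.13, adjusted p = 2.09e-05). It was still 1.40-fold higher with LPS+RCMNs than in control (log2 0.48 ± 0.12, adjusted p = 0.0438). Sqstm1 lies on chromosome 11 at 50200152 to 50210820 (GRCm38.p6), and 20.5% of its exon bases overlap Mrnip on the opposite strand, whose level was at most 6.72 CPM in any library.

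Nbr1, the gene of a second ubiquitin-binding receptor that works with p62, was 85.5, 60.4 and 57.3 CPM in control, 27.7 and 25.6 in LPS and 58.8, 51.6 and 55.2 in LPS+RCMNs libraries. The LPS values were the lowest, and the other groups overlapped. Its log2 fold change was -1.35 ± 0.18 in LPS (adjusted p = 1.47e-04) and 1.05 ± 0.17 with LPS+RCMNs against LPS (adjusted p = 6.99e-04). Per length, the level of Sqstm1 over that of Nbr1 was 6.76, 8.82 and 9.33 in control, 86.3 and 73.5 in LPS and 14.6, 13.2 and 13.7 in LPS+RCMNs libraries, so the 3 groups did not overlap in this ratio. Of the summed FPKM of the 5 receptors, Sqstm1 held 65.4 ± 1.33% in control, 89.0 ± 1.43% in LPS and 73.4 ± 2.31% in LPS+RCMNs libraries (SD), and Nbr1 8.01 ± 1.26%, 1.12 ± 0.109% and 5.31 ± 0.123%. The ratio and shares still hold the trend on length described below (Sqstm1 1972 bases, Nbr1 4526). With the trend on length and level removed, the log2 fold changes in LPS were 1.28 for Sqstm1 and -0.75 for Nbr1.

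Calcoco1, which encodes a receptor for parts of the endoplasmic reticulum and Golgi, was 17.2 to 21.6 CPM in control, 10.3 and 8.96 in LPS and 10.4 to 15.9 in LPS+RCMNs libraries, with a log2 fold change of -0.97 ± 0.20 in LPS (adjusted p = 0.00242). Without both outlying libraries it was also called higher with LPS+RCMNs than with LPS (0.54, adjusted p = 0.00485, edgeR). Tax1bp1, another ubiquitin-binding receptor, was 145, 128 and 133 CPM in control, 152 and 150 in LPS and 136, 146 and 137 in LPS+RCMNs libraries. Its log2 fold change in LPS of 0.16 ± 0.09 passed no threshold (adjusted p = 0.156, edgeR). Other settings called it in opposite directions: higher with the trend on length alone removed (0.34, adjusted p = 0.0236, edgeR) and without both outlying libraries (0.26, adjusted p = 0.00214, edgeR), and lower on log2(FPKM + 1) (-0.32, adjusted p = 0.0113, limma). Optn was 1.69, 1.54 and 1.63 CPM, then 1.998 and 2.30, then 2.01, 1.27 and 2.26 CPM, and passed no test.

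**Figure D3:**
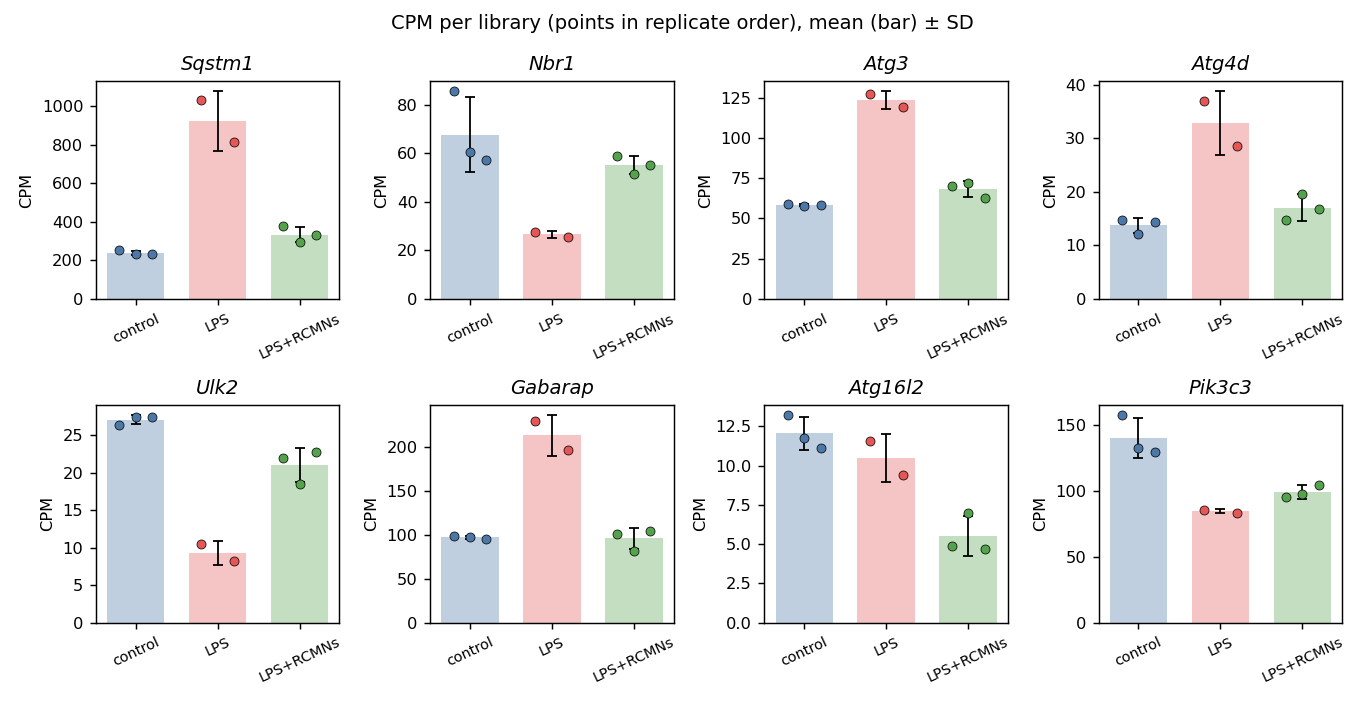
CPM of 8 autophagy genes in each library (points, in replicate order), with the group mean (bar, from 0) and SD (n = 3, 2 and 3). Sqstm1, Atg3, Atg4d and Gabarap are highest in LPS, Nbr1, Ulk2 and Pik3c3 lowest in it, and Atg16l2 is lowest with LPS+RCMNs.

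Which autophagy genes rose or fell in LPS followed transcript length, as did all genes in these libraries. Length is that implied by the deposited counts and FPKM. Of the 16 genes shorter than 2500 bases (a bound chosen after their values were seen), 10 were higher in LPS and 0 lower, and of the 20 longer ones 1 was higher and 15 lower. With LPS+RCMNs against LPS the counts were 0 higher and 9 lower among the shorter and 11 higher and 2 lower among the longer. Shares of all genes called within each of these classes are not given here, so the split is not set against theirs. The rank correlation of log2 fold change with length over the 36 genes was -0.77 for LPS against control, 0.76 for LPS+RCMNs against LPS and -0.44 for LPS+RCMNs against control. Over all 11911 genes tested it was -0.58, 0.59 and -0.09, and these genes share the same libraries. In the shortest decile of all genes (median 834 bases) the median log2 fold change in LPS was 1.245, and in the longest decile (median 7745 bases) it was -0.996. Gabarapl2, the shortest of the 36 at 931 bases, thus lay at the level of other genes of its length.

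**Figure D4:**
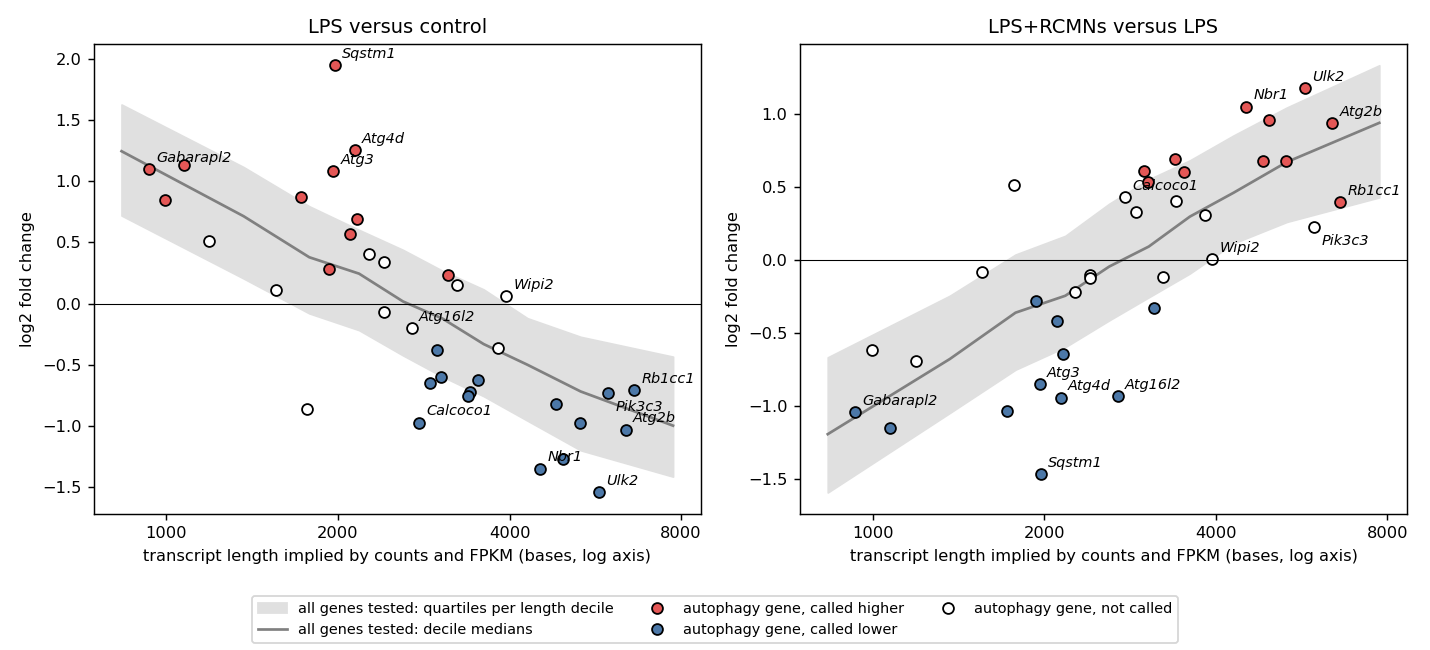
Log2 fold change of the 36 autophagy genes (points) against transcript length (log axis) for LPS versus control and LPS+RCMNs versus LPS, with the median and quartiles of all genes tested per decile of length (line and band). Gabarapl2, Atg2b and Pik3c3 lie within the band for LPS versus control, Sqstm1, Atg3 and Atg4d above it, and Nbr1, Ulk2 and Calcoco1 below it.

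The comparison was therefore also fitted with each library's smooth trend on length and mean level removed, which measures a gene against others of its length and level. Then 7 of the 36 genes were higher and 4 lower in LPS (21.7% and 21% of all genes), with a median log2 fold change of -0.07 against -0.01. Of these 11 genes, 10 had the same call without the correction, and the other, Wipi2, changed from 0.06 to 0.42 ± 0.14 (adjusted p = 0.0386). The higher ones were Sqstm1 (1.28 ± 0.13, adjusted p = 1.42e-04), Atg4d (1.13 ± 0.16), Atg3 (0.65 ± 0.08), Atg4a (0.53 ± 0.11), Wipi2, Atg4b (0.33 ± 0.08) and Atg5 (0.28 ± 0.10). The lower ones were Calcoco1 (-0.77 ± 0.19), Nbr1 (-0.75 ± 0.17), Ulk2 (-0.61 ± 0.15) and Atg16l1 (-0.49 ± 0.14). Among the ATG8 genes, Gabarap moved from 1.13 to 0.04 ± 0.14, Gabarapl2 from 1.10 to -0.04 ± 0.09 and Gabarapl1 from 0.87 to 0.31 ± 0.17. Map1lc3b moved from 0.34 to 0.03 ± 0.15 and Map1lc3a from 0.84 to 0.27 ± 0.27. None of these 5 was called. Nor was any gene of the phosphatidylinositol 3-kinase complex, where Pik3c3 moved from -0.73 to 0.03 ± 0.11. Rb1cc1 turned from -0.71 to 0.30 ± 0.12 (adjusted p = 0.0635, edgeR), and Ulk1 was -0.43 ± 0.39.

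For LPS+RCMNs versus LPS, the fit with the trend removed called 2 genes higher and 9 lower (18.5% and 20.1% of all genes). The higher ones were Atg7 (0.54 ± 0.14, adjusted p = 0.0129) and Atg16l1 (0.42 ± 0.14, adjusted p = 0.0397). Those lower were Atg16l2 (-1.11 ± 0.21), Sqstm1 (-0.90 ± 0.13), Atg4d (-0.80 ± 0.16), Pik3c3 (-0.53 ± 0.11), Gabarapl1 (-0.52 ± 0.17), Rb1cc1 (-0.51 ± 0.12), Atg4a (-0.47 ± 0.11), Atg3 (-0.46 ± 0.08) and Atg4b (-0.44 ± 0.08). Of these 11 genes 9 had the same call without the correction, the exceptions being Pik3c3 (0.23 before, and called higher at 0.21 without both outlying libraries) and Rb1cc1 (0.40 before, called higher). Ulk2 and Nbr1, called higher before, had 0.35 ± 0.15 (adjusted p = 0.101) and 0.48 ± 0.17 (adjusted p = 0.0526, edgeR).

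**Figure D5:**
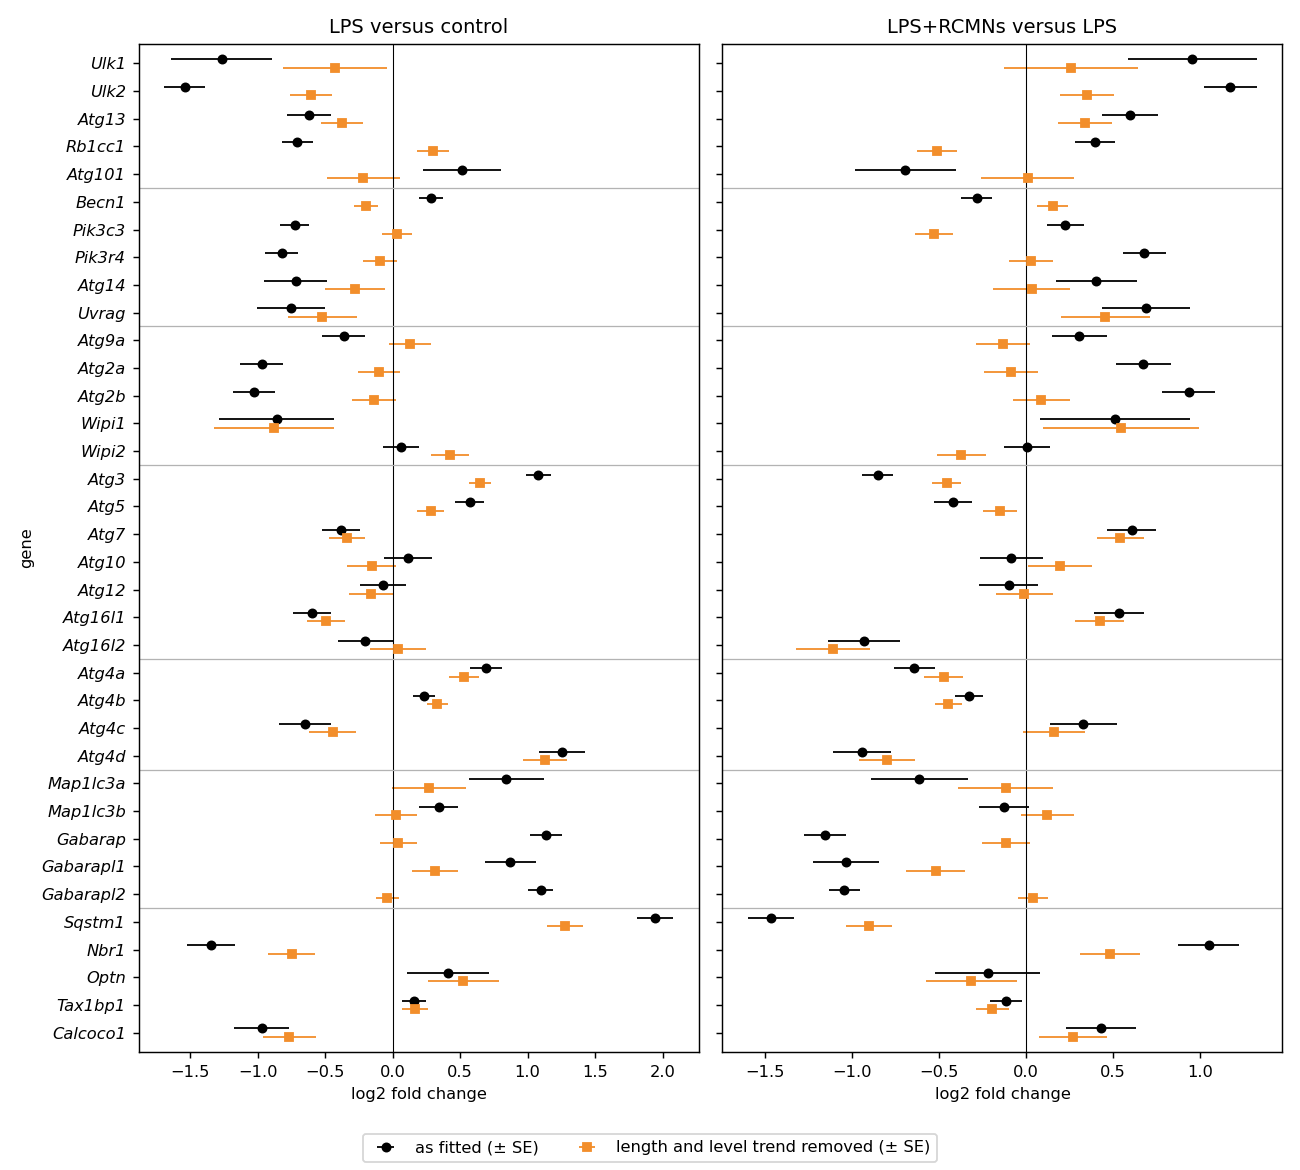
Log2 fold change (± SE) of each autophagy gene as fitted (black circles) and with the trend on length and level removed (orange squares), for LPS versus control and LPS+RCMNs versus LPS. The ATG8 genes Gabarap and Gabarapl2 move to near 0, while Sqstm1, Atg3 and Atg4d stay apart from 0 in both comparisons.

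Few autophagy genes separated LPS+RCMNs libraries from control. Sqstm1 was higher and Pik3c3 and Atg16l2 were lower, with values as above. With the trend removed 0 were higher and 2 lower (4.29% and 3.38% of all genes): Pik3c3 (-0.50 ± 0.10, adjusted p = 0.0195) and Atg16l2 (-1.07 ± 0.19, adjusted p = 0.0121) were called, and Sqstm1 was not (0.38 ± 0.12, adjusted p = 0.0930, edgeR). The Sqstm1 call was also lost when any 1 control library was left out, or LPS+RCMNs replicate 1 or 3 (0.39 to 0.52). That of Pik3c3 was lost without LPS+RCMNs replicate 1 or 3 (-0.47 and -0.54, adjusted p = 0.0759 and 0.0522, edgeR). Atg16l2 was called in each of these fits. Without control replicate 1 and LPS+RCMNs replicate 2, 8 genes were called: Sqstm1 (0.63), Map1lc3b (0.44), Atg7 (0.37), Uvrag (0.23) and Atg13 (0.22) higher, and Atg16l2 (-1.24), Pik3c3 (-0.37) and Gabarapl1 (-0.29) lower. In that fit 1755 of all 11911 genes were called higher and 1258 lower, against 516 and 385 with all libraries. With all libraries Uvrag and Atg13 had log2 fold changes of -0.06 and -0.02.

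Of 79 further genes of the pathway, listed by role, 76 were tested. Against control, 21 of them were higher and 39 lower in LPS libraries, where 31.4% and 32.1% of all genes were called. The counts were 30 higher and 16 lower with LPS+RCMNs than with LPS (29.8% and 29.5% of all genes), and 3 higher and 5 lower with LPS+RCMNs than in control (4.33% and 3.23%). With the trend on length and level removed these counts were 14 and 23 (21.7% and 21% of all genes), 16 and 11 (18.5% and 20.1%), and 3 and 4 (4.29% and 3.38%). The counts of each list below are to be read against the same shares, and no difference between lists was tested. Among 10 transcription factors of autophagy and lysosome genes and their regulators, 1 was higher and 8 lower in LPS, or 1 and 4 with the trend removed. Tfeb was 7.84, 6.05 and 6.27 CPM in control, 3.93 and 3.51 in LPS and 4.12, 4.86 and 3.36 in LPS+RCMNs libraries (log2 fold change -0.85 ± 0.22 in LPS, adjusted p = 0.00846). Mitf was lower in LPS (-1.21 ± 0.26) and higher with LPS+RCMNs than with LPS (1.19 ± 0.26), but neither was called with the trend removed (-0.62 and 0.61, adjusted p = 0.0679 and 0.0752, edgeR). Tfe3 was not called with all libraries, and without both outlying ones was lower with LPS+RCMNs than with LPS (-0.19, adjusted p = 0.0270, edgeR) and than in control (-0.21, adjusted p = 0.0460, edgeR). Tfec, a related factor, rose from at most 0.233 CPM in control to 1.33 and 1.15 in LPS and 0.961 to 1.27 in LPS+RCMNs libraries (log2 fold changes 2.73 ± 0.43 and 2.54 ± 0.40 against control), with control levels near what a count of 3 gives.

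Of 17 upstream kinases and regulators tested, 3 were higher and 10 lower in LPS, or 2 and 6 with the trend removed. Deptor and Sesn1 both encode inhibitors of mTORC1 signalling. Deptor was lower by -3.27 ± 0.35 on the log2 scale in LPS and by -2.08 with the trend removed. Sesn1 was 47.2 to 76.9 CPM in control, 7.87 and 12.3 in LPS and 25.2 to 32.7 in LPS+RCMNs libraries. Its log2 fold change was -2.53 ± 0.27 in LPS, -2.50 with the trend removed, and -1.02 ± 0.22 for LPS+RCMNs versus control. Rptor, which encodes the mTORC1 subunit raptor, was 77.7 to 90.4, then 41.3 and 39.2, then 90.3 to 105 CPM (log2 fold change -1.10 ± 0.11 in LPS, -0.33 with the trend removed).

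Other initiation factors (14 genes) had 5 higher and 8 lower in LPS, or 3 and 3 with the trend removed. Rubcnl, whose product Pacer promotes autophagosome maturation, was 11.5 to 25.5 CPM in control, 1.76 and 1.39 in LPS and 4.95 to 5.42 in LPS+RCMNs libraries, called lower in both against control (-3.37 ± 0.41 and -1.66 ± 0.30). Rubcn, the gene of the inhibitor Rubicon, was lower in LPS by -0.68 ± 0.19, which turned to 0.13 with the trend removed. Vmp1, an endoplasmic reticulum protein needed for autophagosome formation, was 76.1 to 92.4 CPM in control, 130 and 138 in LPS and 125 to 155 in LPS+RCMNs libraries (0.63 ± 0.12 and 0.72 ± 0.11 against control).

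Of 18 genes for fusion with the lysosome, 8 were higher and 6 lower in LPS, or 4 and 4 with the trend removed. Plekhm1, an adaptor that joins autophagosomes to the fusion machinery, had the largest fall of the further genes named here: it was 75.2 to 110 CPM in control, 5.21 and 8.05 in LPS and 59.0 to 96.7 in LPS+RCMNs libraries. The log2 fold changes of Plekhm1 were -3.72 ± 0.32 and 3.66 ± 0.32, or -2.84 and 2.85 with the trend removed. Vamp8, a fusion SNARE and the shortest gene named, was 1.35 ± 0.09 higher in LPS on the log2 scale and 0.00 with the trend removed. Of 17 other cargo and organelle receptors tested, 4 were higher and 7 lower in LPS, or 4 and 6 with the trend removed. Bnip3, a mitophagy receptor, was 141 to 212 CPM in control, 83.2 and 80.5 in LPS and 60.9 to 93.1 in LPS+RCMNs libraries, called lower against control in both (-1.07 ± 0.21 and -1.13 ± 0.18). Pink1, the kinase that marks damaged mitochondria, was 39.5 to 43.0 CPM in control, 17.4 and 14.0 in LPS and 19.4 to 28.7 in LPS+RCMNs libraries (-1.39 ± 0.19 and -0.70 ± 0.16).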

How the data were processed

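RNA of 8 MH-S samples, grouped by their titles, was sequenced. TRIzol extraction, oligo(dT) beads and a BGI library kit were used, per the labels' protocols. The authors deposited an expected count (estimated count) and an FPKM value for each gene and library, made with build mm10 per the submitters' processing notes after a FastQC check that the series' design text mentions. Estimated counts need not be whole, and 77.8% of those above 0 lay over 0.001 from a whole number. Aligner, counting tool, use of strand and annotation: not given in the sources used here. Sample descriptions give the library codes of the columns; 4 columns with another code were left unused.

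Counts were rounded to whole numbers. Genes kept by filterByExpr were scaled by TMM and given to the quasi-likelihood test of edgeR 4.0.16 (R 4.3.3) over all 8 samples in 3 groups, at an adjusted p below 0.05. The standard error is the log2 fold change divided by the square root of F. Biological variation (common coefficient) was 14.5%, and degrees of freedom were 5 residual and 4.15 prior. Depth was 18.6 to 21.2 M (mega) counts. The trend on length and level was removed as an offset (loess, span 0.4). The fits were tested on simulated data. Gene positions, exon overlaps and promoter windows come from GRCm38 tables (RefSeq GRCm38.p6 and GENCODE).

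The 36 genes, the further lists and the tests were chosen with earlier results of these data known. All 36 could be named, with values per library for 20 listed ones and for the 6 called genes of smallest p without overlap per comparison, and of each further list up to 3 called genes of smallest p per direction, besides Tfeb, Tfe3, Mitf and Rubcn. Alternatives were the 2 groups alone, a block for replicate number, leaving out each library, both outlying libraries left out, other filters, median-ratio size factors, DESeq2 1.42.0, limma 3.58.1 on log2(FPKM + 1) and log2(FPKM + 0.1), a robust prior, a fold minimum (absolute log2 of 1) and the trend on length, with or without level. Counts of the further lists under these settings were added after seeing the data.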

Additional observations from a re-analysis of the deposited data

How the results depend on the processing

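The 36 genes were refitted under 21 other settings. In LPS versus control, Atg3, Atg4d and Sqstm1 (higher) and Ulk2, Nbr1 and Calcoco1 (lower) kept their calls in all of them but, for Calcoco1, a fold minimum. With LPS+RCMNs against LPS, Atg3, Atg16l2, Atg4d, Gabarapl1 and Sqstm1 did so (lower), outside the fold minimum, and Atg16l2 against control. The stricter filter removed Atg16l2 and others and gave no value for them.

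Of the counts for LPS versus control (11 higher, 15 lower), the higher became 5 on FPKM with either pseudocount and with the fold minimum, and 7 with length and level removed. The lower became 4 with the fold minimum, 6 with length removed and 4 with length and level removed. Leaving out 1 library gave 9 to 15 lower, the 9 without LPS replicate 2. For LPS+RCMNs versus LPS (11 and 11), the higher became 18 on FPKM with either pseudocount, 2 with the fold minimum, 4 with length and 2 with length and level removed, and 6 to 15 with 1 library left out, the 6 without LPS replicate 2. The lower became 7 on FPKM and 4 with the fold minimum. For LPS+RCMNs versus control (1 and 2), the higher became 5 without control replicate 1 and LPS+RCMNs replicate 2, 0 without the filter, on FPKM, with the fold minimum and with length, or length and level, removed, and 0 to 2 with 1 library left out (0 without any control library or LPS+RCMNs replicate 1 or 3, 2 without LPS+RCMNs replicate 2). The lower became 1 with the replicate block, the stricter filter and the fold minimum, and 1 to 2 with 1 library left out (1 without LPS+RCMNs replicate 1 or 3). Counts over all genes are given above for only some of these settings.

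Replicate numbers are not stated to pair samples, and deviations of same-numbered libraries correlated from -0.339 to 0.197. Control replicate 1 correlated best with LPS+RCMNs replicate 2 (0.382), so libraries did not each correlate best with their own number. With the number as a block, 8 genes were higher and 15 lower in LPS, 10 and 10 with LPS+RCMNs against LPS, and 1 and 1 against control. Counts over all genes with that block are not given here.

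Some log2 fold changes changed sign. On log2(FPKM + 1) and log2(FPKM + 0.1), whose median over all genes was -0.33 and -0.47 for LPS versus control and 0.27 and 0.40 for LPS+RCMNs versus LPS, Becn1 was -0.25 and -0.26, Wipi2 -0.38 and -0.40, Atg4b -0.24 and -0.25, Tax1bp1 -0.32 and -0.33 and Prkag1 -0.16 and -0.17 in the first comparison. In the second, Becn1 was 0.17 and 0.18, Atg4b 0.084 and 0.088 and Tax1bp1 0.30 and 0.30. With length removed, Rb1cc1 was 0.071, Becn1 -0.025, Pik3c3 0.0005, Map1lc3a -0.090, Prkag1 -0.16 and Prkaa1 0.29 in the first, and Rb1cc1 -0.32 and Pik3c3 -0.44 in the second. With level also removed, Rb1cc1 was 0.30, Becn1 -0.20, Pik3c3 0.030, Gabarapl2 -0.039, Rheb -0.19, Wdfy3 0.33, Prkag1 -0.28, Prkaa1 0.28 and Rubcn 0.13 in the first, and Rb1cc1 -0.51, Becn1 0.15, Pik3c3 -0.53, Atg2a -0.083, Gabarapl2 0.042, Rheb 0.14, Wdfy3 -0.16, Prkag1 0.052 and Prkaa1 -0.0024 in the second. Without both outlying libraries, Atg13 was 0.22, Uvrag 0.23 and Plekhm1 0.38 for LPS+RCMNs versus control. The cause of these changes was not tested.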
